A study of Homo sapiens with 12 samples.

Results

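FGFR1 and 9 genes that lie near it on the short arm of human chromosome 8 (band 8p11) are described here in FaDu and Cal27 cells and in their afatinib-resistant (AfaR) and erlotinib-resistant (ErlR) derivatives. The 10 genes, of 58051 in the count tables, are ZNF703, ERLIN2, PLPBP, ADGRA2, BRF2, RAB11FIP1, ASH2L, BAG4, NSD3 and FGFR1, in a window of chromosome 8 (GRCh38) whose 55 annotated genes start between positions 37600537 and 38996869. They were chosen because this stretch was raised in FaDu AfaR cells against FaDu parental cells, so their values in that comparison are a description and carry no test. The comparisons in Cal27 cells were not used in the choice. All 10 genes passed the filter on low counts in both lines, ADGRA2 only through the AfaR libraries, where it was high.

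FaDu is an established line of hypopharyngeal squamous cell carcinoma and Cal27 one of tongue squamous cell carcinoma, and the labels give both as genotype WT. Each line was measured by poly(A)-selected RNA-seq in 3 groups of 2 biological replicates: parental cells, AfaR cells and ErlR cells. Afatinib inhibits the ERBB receptor family and erlotinib inhibits EGFR. Each resistant model is 1 population, selected by culturing the line in rising concentrations of 1 drug and, by the study's methods, kept without drug for a day before experiments, so resistance, the history of selection and the passage of that 1 population cannot be told apart.

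FGFR1 is a receptor tyrosine kinase that binds fibroblast growth factors (FGFs) at the cell surface and signals through the adaptor FRS2 and the RAS-ERK cascade, which in turn induces feedback inhibitors such as the Sprouty proteins and dual-specificity phosphatases. The short-arm region around FGFR1 is known to be amplified in a part of squamous carcinomas and breast carcinomas, and several genes near FGFR1 are then raised together. RNA counts do not measure copy number, and copy number was not analysed here.

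Each library held 16334937 to 23399259 gene counts, with a median of 16584450. Levels are given as CPM, counts scaled to a common effective library size by TMM normalization over the 12 libraries, and the replicates of each group differed by more than counting error. Cal27 AfaR libraries stood apart in a list of 7 squamous epithelium markers, whose summed level was 877 to 975 CPM against 3829 to 4896 CPM in Cal27 parental libraries, with 6 of the 7 lower, KRT14 and TP63 among them. A list of 4 fibroblast markers summed to 283 to 289 CPM in Cal27 AfaR and to 28.8 to 39.8 CPM in Cal27 parental libraries. Most of this sum was 1 gene, COL1A1, with 266 and 273 CPM in Cal27 AfaR and 25.4 and 35.5 CPM in Cal27 parental libraries. Of the 3 tested fibroblast markers 2 passed as higher in Cal27 AfaR, against 19.5% of all genes tested. Squamous sums were 4656 CPM or more in Cal27 ErlR and in every FaDu library, and summed leukocyte markers stayed between 8.82 and 16.3 CPM in every group. In Cal27 ErlR 3 of the 7 squamous markers passed as lower and 1 as higher, the fibroblast sum was 4.22 to 9.59 CPM with 3 of 3 tested markers lower, and a list of 3 endothelium markers summed to 2.49 to 6.05 CPM, with 1 of 2 tested markers lower, against 31.7 to 32.7 CPM in Cal27 parental libraries. In Cal27 parental libraries CDH5 alone held 30.3 and 30.7 CPM of the endothelium sum. Of all genes tested, 18.2% passed as lower in Cal27 AfaR, and 15.3% as lower and 12.3% as higher in Cal27 ErlR. Endothelium sums were 30.1 to 37.4 CPM in Cal27 AfaR and 3.13 to 20.3 CPM over the FaDu libraries. The part of these marker levels in the results was not tested. In these bulk samples, fewer cells with a transcript and less transcript per cell cannot be told apart.

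The 10 genes run from ZNF703 at the telomere side to FGFR1 at the centromere side. ZNF703, a zinc finger transcriptional co-repressor, lies at chr8:37695751-37700021 on the plus strand, ERLIN2 at chr8:37736599-37759101 (plus) and PLPBP at chr8:37762593-37779767 (plus). ADGRA2 follows at chr8:37784191-37844896 (plus), BRF2 at chr8:37843268-37849904 (minus) and RAB11FIP1 at chr8:37858618-37899467 (minus). ASH2L lies at chr8:38105242-38144076 (plus), BAG4 at chr8:38176533-38213301 (plus), NSD3 at chr8:38269697-38382272 (minus) and FGFR1 (ENSG00000077782) at chr8:38411138-38468834 (minus). ADGRA2 and BRF2 face each other and share 1629 bases of exon, 23.1% of the exonic length of ADGRA2 and 59.0% of that of BRF2. Since the strand setting of the counting is not stated, it is not known whether reads there were counted for either gene, or at all. RAB11FIP1 shares 24.8% of its exonic bases with an unnamed antisense gene that had 0 counts in every library. Whether reads of these shared bases were counted at all is likewise not known. The other 7 genes share at most 5.72% of theirs.

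In FaDu AfaR cells FGFR1 had 13.6 and 11.4 CPM (281 and 278 counts) against 3.25 and 2.81 CPM (67 and 54 counts) in FaDu parental cells. The means were 12.5 ± 1.55 and 3.03 ± 0.315 CPM (SD, n = 2), a log2 fold change of 2.03 (SE 0.231). Both resistant libraries were thus above both parental libraries. The other 9 genes had the same order of libraries, so that 10 of 10 were above without overlap and 10 of 10 had an adjusted p under 0.05, where the background of all 15092 genes tested was 33.8% above without overlap and 10.4% called higher. Because the genes were chosen on this contrast, nothing is read from those counts. The median of the 10 log2 fold changes was 1.73 (3.32-fold), from 1.23 for BRF2 to 3.17 for ADGRA2, and the median over all genes tested was 0.00.

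**Figure D1:**
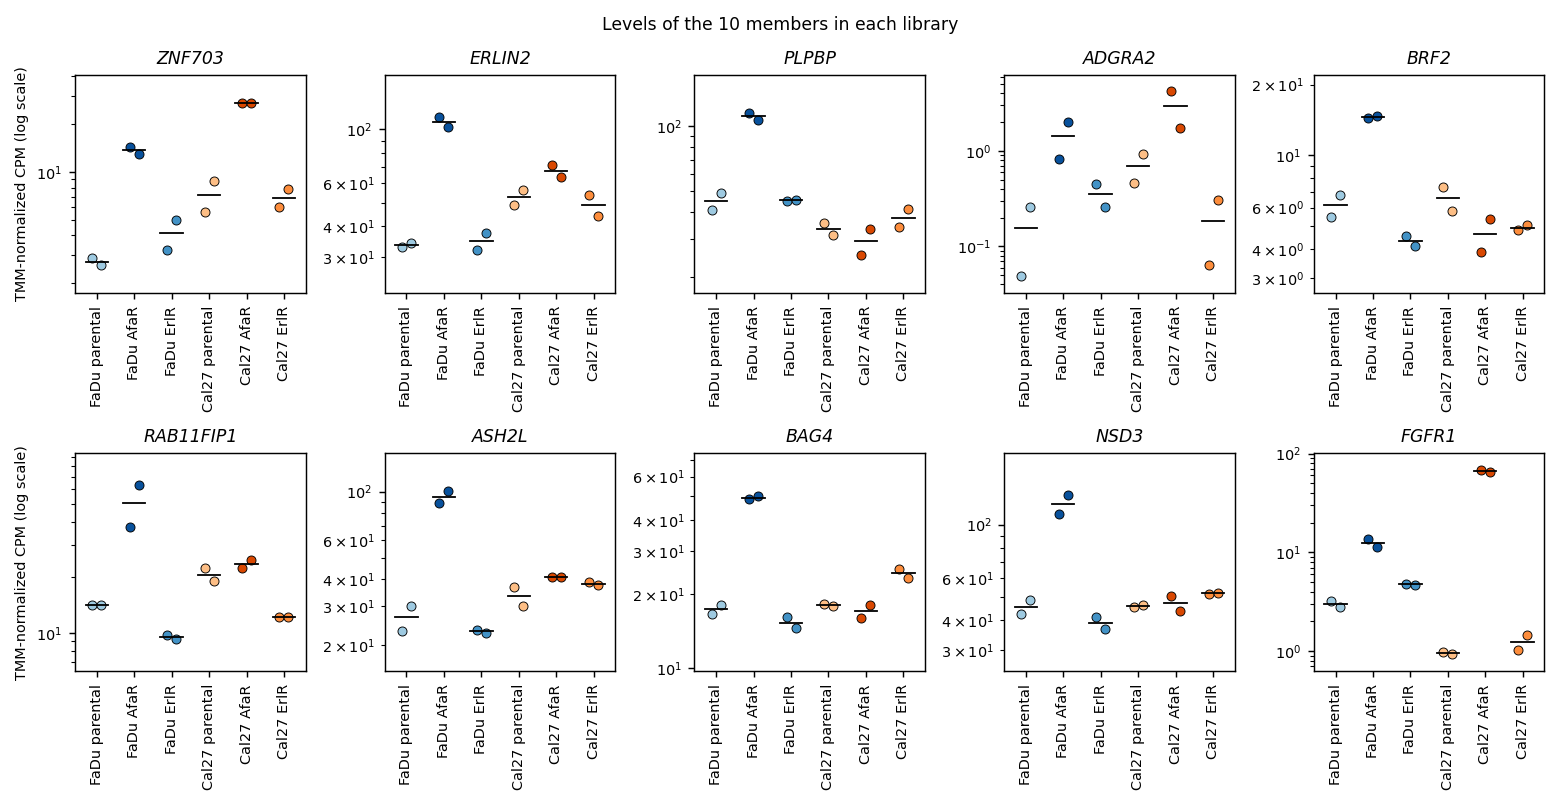
TMM-normalized CPM (log scale) of each of the 10 genes in each of the 12 libraries, by group, with points for libraries and a bar for the mean of 2. In FaDu AfaR every gene lies above FaDu parental, and in Cal27 AfaR FGFR1 lies at 65.1 and 67.8 CPM against 0.933 and 0.990 CPM in Cal27 parental.

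Among the genes that act on chromatin and transcription, ASH2L, a core subunit of histone methyltransferase complexes of the MLL and SET1 family, had 89.1 and 100.1 CPM in FaDu AfaR and 23.3 and 30.1 CPM in FaDu parental libraries. NSD3, a histone lysine methyltransferase, had 111 and 133 CPM against 42.6 and 48.5 CPM. BRF2, a subunit of the initiation factor that recruits RNA polymerase III to the U6 type of promoter, had 14.4 and 14.7 CPM against 5.49 and 6.76 CPM. These 3 genes had log2 fold changes of 1.81, 1.40 and 1.23. ZNF703 had 14.5 and 12.9 CPM against 2.86 and 2.60 CPM, a log2 fold change of 2.30.

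Of the genes of membranes, trafficking and protein handling, ERLIN2, a membrane protein of the endoplasmic reticulum that acts with the ubiquitin ligase RNF170 in the turnover of inositol trisphosphate receptors, had 112 and 102 CPM against 32.9 and 34.3 CPM. RAB11FIP1, a RAB11 effector of recycling endosomes, had 775 and 1534 counts in FaDu AfaR (50.4 ± 18.0 CPM, SD, n = 2) against 293 and 273 counts (14.2 CPM in both libraries), with AfaR replicates that lay well apart. BAG4, a co-chaperone of HSP70 that also binds a receptor of tumor necrosis factor, had 48.6 and 49.9 CPM against 16.7 and 18.0 CPM. PLPBP, which binds the vitamin B6 cofactor pyridoxal phosphate, had 115 and 107 CPM against 40.9 and 49.2 CPM. The 4 log2 fold changes were 1.66 (ERLIN2), 1.81 (RAB11FIP1), 1.49 (BAG4) and 1.28 (PLPBP).

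ADGRA2, an adhesion G protein-coupled receptor that acts with RECK in WNT7 signaling, was the least abundant, with 17 and 49 counts in FaDu AfaR and 1 and 5 counts in FaDu parental libraries. Its log2 fold change of 3.17 (SE 0.762) rests on these few counts and fell between 2.38 and 4.68 over the alternatives, with 2.40 without FaDu parental replicate 1, 4.68 without FaDu parental replicate 2 and 2.38 without FaDu AfaR replicate 2.

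The raised stretch was not limited to the 10 genes. Of the 55 annotated genes of the window, 19 passed the filter on low counts, and all of the 9 that are not among the 10 were also higher in FaDu AfaR, with a median log2 fold change of 1.53. EIF4EBP1, which encodes a repressor of translation controlled by mTOR, had 2.23 (SE 0.123) and TACC1, a centrosome-associated coiled-coil protein, 2.19 (SE 0.136). PLPP5, LETM2, DDHD2, LSM1, PLEKHA2, TM2D2 and ADAM9 lay between 1.29 and 1.95. These genes share the window and the contrast used in the choice and are likewise a description.

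No tested gene near the window passed as higher, but the first gene on each side was measured too poorly to place the edge of the rise. ADAM9, which starts at 38996869, had 1.29 and was the last tested gene inside. IDO1, which starts at 39902275, was the next and had 0.86 (SE 1.26) with overlapping libraries, at 115 and 215 counts against 1 and 151. Further out, GOLGA7, at 41490396, had 0.35 (SE 0.107, adjusted p = 0.0535 by edgeR). Of the 10 genes on the centromere side 2 had both AfaR libraries above both parental ones and 3 had both below. On the telomere side the nearest tested gene was LSM12P1, at 35525176, with 0.14 (SE 0.444) and only 17 and 29 counts against 16 and 20. Of the 10 nearest tested genes on the telomere side the median log2 fold change was -0.10, and of the 10 on the centromere side it was -0.08. None of these 20 genes passed as higher and 3 passed as lower, against 10.4% and 7.49% of all genes tested. At an unadjusted p under 0.05 by edgeR there were 7 of the 20, against 35.2% of all genes tested. No gene between ADAM9 and IDO1 or between LSM12P1 and ZNF703 passed the filter in FaDu. Over the 486 other tested genes of chromosome 8, the median was 0.02.

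**Figure D2:**
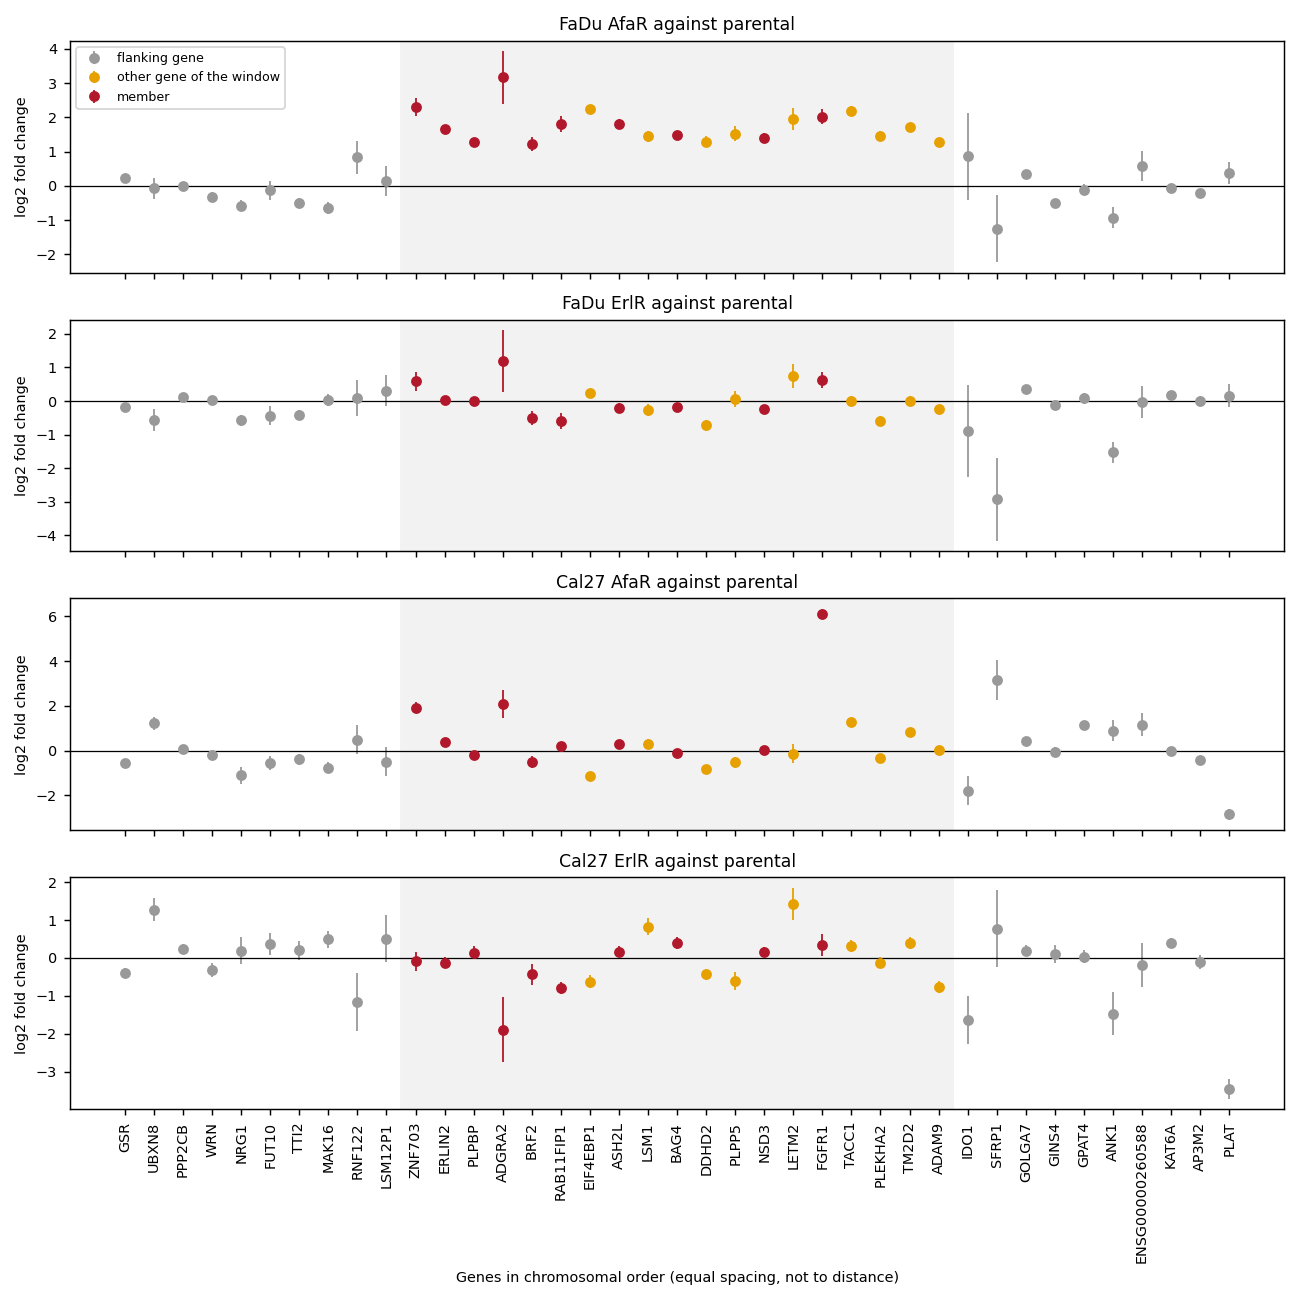
Log2 fold change against parental cells (error bars, SE of the fit) for 10 flanking genes on each side and the 19 tested genes of the window (shaded), in chromosomal order with equal spacing, for the 4 comparisons. The shaded genes lie between 1.23 and 3.17 in FaDu AfaR, and in Cal27 AfaR FGFR1 stands alone at 6.10.

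Summed over the 10 genes, the level was 577 ± 27.4 CPM in FaDu AfaR and 194 ± 17.4 CPM in FaDu parental cells (SD, n = 2), a ratio of 2.96. The 20 flanking genes gave ratios of 0.953 and 0.969 on their sides. Without FGFR1 the sum of the other 9 genes had a ratio of 2.95, since FGFR1 added only 9.50 CPM to the difference.

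FaDu ErlR cells did not show the raised stretch. This comparison shares both FaDu parental libraries with the one that chose the genes. The summed level was 181 CPM in both ErlR libraries, against 182 and 207 CPM in the parental libraries, a ratio of 0.928. With edgeR, 0 of 10 genes passed in FaDu ErlR, where 2.58% of all genes passed as higher and 1.60% as lower. At an unadjusted p under 0.05 there were 3, namely FGFR1, RAB11FIP1 and BRF2, against 21.2% of all genes, and DESeq2 also passed 0. The median log2 fold change was -0.09.

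FGFR1 had 4.80 and 4.71 CPM (75 and 72 counts) in FaDu ErlR, above both parental libraries, with a log2 fold change of 0.64 (SE 0.240, adjusted p = 0.166). ZNF703 had 3.26 and 5.03 CPM, also above both, with 0.59 (SE 0.275, adjusted p = 0.259). RAB11FIP1 had 9.72 and 9.29 CPM, below both parental libraries, with -0.59 (SE 0.234, adjusted p = 0.184). BRF2 had 4.54 and 4.12 CPM, below both, with -0.51 (SE 0.220, adjusted p = 0.222). ADGRA2 stood at 7 and 4 counts. Under scaling to the ERCC spike-ins, which moved the median of all genes by 0.49, FGFR1 (1.12), ZNF703 (1.05), ERLIN2 (0.51) and PLPBP (0.49) passed, and most of the ERLIN2 and PLPBP values is that shift. Of the other 9 tested genes of the window, 1 passed in FaDu ErlR by edgeR, DDHD2 as lower (-0.72, SE 0.162, adjusted p = 0.0420). Its call was lost without any 1 of the 4 libraries, at values from -0.80 to -0.64. PLEKHA2 did not pass (-0.58, adjusted p = 0.0542), but passed as lower with DESeq2, without a filter and in the fit of 12 libraries. With ERCC scaling and its shift of 0.49, EIF4EBP1 (0.71), LETM2 (1.20) and TACC1 (0.48) passed as higher.

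Cal27 AfaR cells had the highest FGFR1 of all groups, and of the other 9 genes only ZNF703 and ADGRA2 passed as higher. Because ADGRA2 passed the filter in Cal27 only through its AfaR libraries, its call there is a description and no test. FGFR1 had 67.8 and 65.1 CPM (1256 and 1122 counts) in Cal27 AfaR against 0.990 and 0.933 CPM (17 and 16 counts) in Cal27 parental cells. Every AfaR library was far above every parental library, and the means were 66.5 ± 1.91 and 0.962 ± 0.0402 CPM (SD, n = 2). The log2 fold change was 6.10 (SE 0.221, 68.7-fold, adjusted p = 9.32e-07), which ranked 28 among the 13398 genes of the line that averaged 1 CPM or more. Over all alternatives it stayed between 6.06 and 6.15.

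In the same comparison 3 of 10 genes passed as higher, against 19.5% of all genes tested, and 0 of 10 passed as lower, against 18.2%. The count of 3 includes ADGRA2, which by its way through the filter could only pass as higher. At an unadjusted p under 0.05 there were 4, all of them higher, against 47.2% of all genes, and DESeq2 passed 3. ZNF703 had 27.3 and 27.4 CPM against 5.65 and 8.81 CPM in parental libraries, a log2 fold change of 1.92 (SE 0.241, 3.78-fold, adjusted p = 0.000340). ADGRA2 had 78 and 30 counts (4.21 and 1.74 CPM) against 8 and 16 counts (0.466 and 0.933 CPM), a log2 fold change of 2.08 (SE 0.614, adjusted p = 0.0248). Both libraries were above both parental ones for each gene, but the ADGRA2 call was lost without Cal27 parental replicate 1 (1.67, adjusted p = 0.116) and without Cal27 AfaR replicate 1 (1.31, adjusted p = 0.260).

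The other 7 genes had log2 fold changes between -0.51 and 0.36 in Cal27 AfaR and adjusted p-values between 0.0857 and 0.820. ERLIN2 had the largest of these, 0.36 (SE 0.151), with 71.6 and 63.8 CPM above the 48.9 and 56.4 CPM of the parental libraries. BRF2 had the lowest, -0.51 (SE 0.274, adjusted p = 0.175), with 3.89 and 5.34 CPM below 7.34 and 5.78 CPM. NSD3, the gene next to FGFR1 among the 10, stood at 50.7 and 43.8 CPM against 45.5 and 46.2 CPM, with overlapping libraries. The median of the 10 was 0.24, against 0.00 over all genes, and was 0.11 without Cal27 parental replicate 2.

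The sum of the 10 genes was 327 ± 4.13 CPM in Cal27 AfaR and 219.7 ± 3.27 CPM in Cal27 parental cells (1.49 times). FGFR1 made up 65.5 CPM of that difference, and without it the ratio was 1.19. Among the other tested genes of the window in Cal27 AfaR, TACC1 (1.27, SE 0.155, adjusted p = 0.000293) and TM2D2 (0.82, SE 0.146, adjusted p = 0.00218) rose, while EIF4EBP1 (-1.12, SE 0.179, adjusted p = 0.00132) and DDHD2 (-0.80, SE 0.141, adjusted p = 0.00201) fell. These 4 calls held under every alternative. The lower squamous marker sum and the higher fibroblast marker sum of Cal27 AfaR, the latter mostly COL1A1, go with the FGFR1, ZNF703 and ADGRA2 levels. The part of these sums in the result was not tested.

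Cal27 ErlR cells kept FGFR1 near the parental level. FGFR1 had 1.02 and 1.47 CPM (16 and 24 counts), above both parental libraries, and the log2 fold change of 0.35 (SE 0.289) had an adjusted p of 0.443. Of the 10 genes 1 passed as lower, against 15.3% of all genes tested, and 0 as higher, against 12.3%. At an unadjusted p under 0.05 there were 2, against 40.2% of all genes, and DESeq2 passed 1. The gene that passed was RAB11FIP1, with 12.2 and 12.2 CPM against 22.4 and 19.1 CPM, a log2 fold change of -0.79 (SE 0.167, 1.73-fold lower, adjusted p = 0.00825). The call held under every alternative, with values from -0.88 to -0.65.

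BAG4 had 25.4 and 23.3 CPM in Cal27 ErlR against 18.3 and 17.9 CPM, a log2 fold change of 0.40 (SE 0.158, adjusted p = 0.0877). ADGRA2 had 1 and 5 counts against 8 and 16 counts, a log2 fold change of -1.89 (SE 0.857, adjusted p = 0.131). The sum of the 10 genes was 226 CPM, 1.03 times the parental sum, and the median log2 fold change was 0.03. Of the other 9 tested genes of the window 2 passed as higher and 3 as lower. ADAM9, a membrane metalloproteinase, fell by 0.77 (SE 0.152, adjusted p = 0.00595) and held under every alternative, while LSM1, LETM2, EIF4EBP1 and DDHD2 lost their calls when 1 library was left out. LSM1 had 0.82, and 0.60 without Cal27 parental replicate 2 and 0.79 without Cal27 ErlR replicate 1. LETM2 had 1.43, and 1.00 and 1.01 without the same libraries. EIF4EBP1 had -0.62, and -0.49 without Cal27 parental replicate 1 and -0.52 without Cal27 ErlR replicate 1. DDHD2 had -0.43, and lost its call without any 1 of the 4 libraries, at values from -0.43 to -0.40.

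The difference between the erlotinib-resistant effects in the 2 lines was tested as an interaction over the 12 libraries. Of the 10 genes 1 passed, against 18.6% of the 16240 genes tested, and 2 had an unadjusted p under 0.05, against 33.1%. BAG4 had a log2 difference of -0.61 (SE 0.194, adjusted p = 0.0462), with FaDu at -0.19 and Cal27 at 0.40. Both DESeq2 and leaving out any 1 of the 8 libraries of these groups took the call away, leaving 0. FGFR1 had a difference of 0.27 (SE 0.347, adjusted p = 0.659). RAB11FIP1, lower in both ErlR groups by mean, had 0.18 (SE 0.304, adjusted p = 0.724). The same difference was not tested for AfaR, since FaDu AfaR chose the genes. Side by side, the log2 fold changes in FaDu AfaR and Cal27 AfaR were 2.03 and 6.10 for FGFR1, 2.30 and 1.92 for ZNF703, 1.81 and 0.29 for ASH2L, 1.40 and 0.04 for NSD3, and 1.23 and -0.51 for BRF2.

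The FGFR1 levels of the 6 groups did not overlap between neighbours in their order. From the highest, the group means were 66.5 CPM in Cal27 AfaR, 12.5 CPM in FaDu AfaR, 4.75 CPM in FaDu ErlR, 3.03 CPM in FaDu parental, 1.24 CPM in Cal27 ErlR and 0.962 CPM in Cal27 parental cells. ZNF703 had its highest mean in Cal27 AfaR too, at 27.4 CPM, followed by 13.7 CPM in FaDu AfaR, each apart from the next, whereas Cal27 parental (7.23 CPM) and Cal27 ErlR (6.91 CPM) overlapped. ADGRA2 also peaked in Cal27 AfaR at 2.98 CPM but overlapped with FaDu AfaR at 1.42 CPM. The other 7 genes peaked in FaDu AfaR, each apart from the next group.

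In the parental cells, 4 genes (ZNF703, ERLIN2, ADGRA2 and RAB11FIP1) were higher in both Cal27 libraries than in both FaDu libraries. PLPBP and FGFR1 were higher in both FaDu libraries, and the remaining 4 overlapped. Levels per length of exon set genes beside each other only roughly, since the length is that of all annotated exons and the transcripts in use were not measured. On this scale PLPBP led in FaDu parental cells with 13.1 CPM per kb. FGFR1 (0.239 CPM per kb) and ADGRA2 (0.0218 CPM per kb) were the lowest. In Cal27 AfaR cells the FGFR1 level per length was 5.23 CPM per kb, above BAG4 (3.54), NSD3 (3.10) and RAB11FIP1 (2.46) and below ZNF703 (8.17), PLPBP (8.58), ERLIN2 (7.16) and ASH2L (6.88).

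The genes moved together over the 6 FaDu libraries, with a median Pearson r of 0.945 over 45 pairs of genes on log2(CPM + 1), a description that reflects the contrast used in the choice. Over the 6 Cal27 libraries the median was -0.027. The libraries of a line share depth and groups, so no test was made.

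Within the FGF receptor family, which also holds FGFR2, FGFR3 and FGFR4, FGFR1 was the smallest part in both parental lines. Per length, FGFR1 made up 1.56% ± 0.124 (SD, n = 2) of the summed FGFR1 to FGFR4 level in FaDu parental and 0.628% ± 0.0778 in Cal27 parental cells. Its part was 5.53% ± 2.13 in FaDu AfaR, 3.32% ± 0.422 in FaDu ErlR and 1.30% ± 0.0584 in Cal27 ErlR. In Cal27 AfaR it was 53.4% ± 4.62 and FGFR1 led the family, while FGFR3 led in both parental lines with 50.0% in FaDu and 53.3% in Cal27. In Cal27 ErlR FGFR2 led with 70.5% ± 10.4. These parts rest on the length of all annotated exons, and the transcripts in use were not measured.

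**Figure D3:**
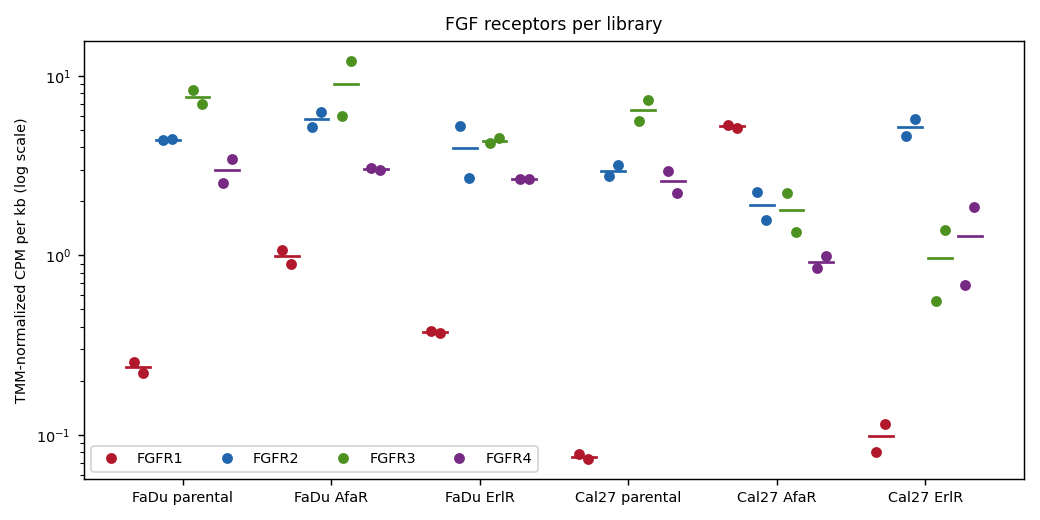
Level per length of exon (CPM per kb, log scale) of FGFR1 to FGFR4 in the 6 groups, with points for libraries and a bar for the mean of 2. FGFR1 makes up 53.4% of the family in Cal27 AfaR and from 0.628% to 5.53% in the other 5 groups.

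The larger part of FGFR1 in Cal27 AfaR came with lower levels of its relatives. FGFR3 had 10.7 and 6.50 CPM against 27.2 and 35.5 CPM in parental libraries (log2 fold change -1.86, SE 0.363, adjusted p = 0.00364). FGFR4 fell by 1.48 (SE 0.402, adjusted p = 0.0170), but its call was lost without Cal27 parental replicate 1 (-1.27), AfaR replicate 1 (-1.37) or AfaR replicate 2 (-1.59). FGFR2 fell by 0.63 (SE 0.206, adjusted p = 0.0377) and lost its call without Cal27 parental replicate 2 (-0.52) or AfaR replicate 2 (-0.39), with upper-quartile scaling (-0.60) and in the fit of 12 libraries (-0.63). FGFRL1, a family member without a kinase domain, rose by 0.78 (SE 0.155, adjusted p = 0.00409). Of the 4 tested genes of this receptor list 1 passed as higher and 3 as lower in Cal27 AfaR, against 19.5% and 18.2% of all genes tested. FGFR1 is not counted in this list. KL and KLB, co-receptors of the hormone-like FGFs, did not pass the filter.

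In Cal27 ErlR FGFR3 was also lower, with 2.68 and 6.66 CPM (-2.77, SE 0.386, adjusted p = 0.00127), and FGFRL1 fell by 0.79 (SE 0.159, adjusted p = 0.00649). FGFR2 rose to 34.9 and 43.3 CPM (0.79, SE 0.201, adjusted p = 0.0185), a call lost without Cal27 parental replicate 1 (0.70) or Cal27 ErlR replicate 2 (0.66). Thus 1 of the 4 tested genes passed as higher and 2 as lower in Cal27 ErlR, against 12.3% and 15.3% of all genes. In FaDu AfaR and in FaDu ErlR 0 of the 4 tested genes of this list passed by edgeR. Of all genes tested, 10.4% passed as higher and 7.49% as lower in FaDu AfaR, and 2.58% and 1.60% in FaDu ErlR. At an unadjusted p under 0.05 there were 0 and 2 of the 4, against 35.2% and 21.2% of all genes.

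The FGF pathway was described by lists of receptors, ligands, adaptors and targets, 55 genes in all. In FaDu AfaR 4 of 40 tested genes passed as higher and 6 as lower, against 10.4% and 7.49% of all genes, and the 10 calls became 2 without FaDu parental replicate 1, 6 without FaDu parental replicate 2 and 2 without FaDu AfaR replicate 2, where calls over all genes went from 2694 to 278, 837 and 804. In FaDu ErlR 3 passed as higher and 1 as lower, against 2.58% and 1.60%, and the 4 calls became 0 without FaDu parental replicate 1, FaDu parental replicate 2 or FaDu ErlR replicate 2, where calls over all genes went from 631 to 68, 72 and 83. In Cal27 AfaR 12 of 37 passed as higher and 8 as lower, against 19.5% and 18.2%. The tested genes of both lines include ligands, named below, that entered the test only through a resistant group. In Cal27 ErlR 16 of 37 passed as higher and 3 as lower, against 12.3% and 15.3%, and the 19 calls became 12 without Cal27 parental replicate 2, where calls over all genes went from 4215 to 2256.

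Among the ligands, including the intracellular FGF homologous factors, 4 of 10 tested genes passed as higher in FaDu AfaR, 2 in FaDu ErlR and 5 of 7 in Cal27 AfaR. Of all genes tested, 10.4%, 2.58% and 19.5% passed as higher in the same comparisons. The median log2 fold changes of the ligands were 1.39, 0.53 and 1.44. Some ligands entered the test only through the resistant group where they were high, so they could only pass as higher. In Cal27 FGF9 had 0 and 0 CPM in parental and 0.864 and 0.638 CPM in AfaR libraries, and FGF12 had 0 and 0.117 against 0.972 and 2.38 CPM. In FaDu FGF10 had 2.69 and 1.18 CPM in ErlR and 0 CPM in all other libraries. The ligand counts and medians are therefore a description, and no excess is read from them. In FaDu AfaR FGF11 had 2.47 and 3.29 CPM against 0.194 and 0.676 CPM (2.71, SE 0.523, adjusted p = 0.0118), and FGF12 had 3.69 and 6.25 CPM against 0.777 and 1.35 CPM (2.21, SE 0.390, adjusted p = 0.00905). Without FaDu parental replicate 1 both calls were lost (2.06 and 1.85), as without FaDu AfaR replicate 2 (2.49 and 1.78). FGF2 also passed as higher in FaDu AfaR, with 69.7 and 107 CPM against 15.8 and 37.9 CPM. That call was lost with DESeq2 (1.70) and with a replicate block (1.72). It was also lost without FaDu parental replicate 1 (1.19) or FaDu AfaR replicate 2 (1.36). In FaDu ErlR FGF12 had 1.74 (adjusted p = 0.0450) and lost its call without any 1 of the 4 libraries, at values from 1.39 to 2.19.

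In Cal27 AfaR FGFBP1, a secreted carrier that releases FGFs from the matrix, had 3.94 and 4.29 CPM against 102 and 71.6 CPM (-4.39, SE 0.450, adjusted p = 0.000103). FGF13 rose from 1.46 and 1.98 CPM to 6.43 and 10.4 CPM (2.28, SE 0.381, adjusted p = 0.00160). Both held under every alternative. FGF1 rose by a log2 fold change of 1.44 (SE 0.469, adjusted p = 0.0372), lost without Cal27 parental replicate 1 (0.91) or AfaR replicate 1 (1.01). FGF2 also passed as higher in Cal27 AfaR, a call lost in the fit of 12 libraries (0.66). It was also lost without Cal27 parental replicate 2 (0.49), AfaR replicate 1 (0.76) or AfaR replicate 2 (0.58). In Cal27 ErlR 1 ligand gene of 7 passed, FGF1 as lower (-1.77, SE 0.576, adjusted p = 0.0472), a call lost without Cal27 parental replicate 2 (-0.90), Cal27 ErlR replicate 1 (-1.64) or replicate 2 (-1.87). Of all genes tested in Cal27 ErlR, 15.3% passed as lower.

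Of the 10 adaptors that couple the receptor to RAS and phospholipase C, 1 passed as lower in FaDu AfaR, 0 in FaDu ErlR, and 2 as higher in each of Cal27 AfaR and Cal27 ErlR. Of all genes tested, 7.49% passed as lower in FaDu AfaR, and 19.5% and 12.3% as higher in Cal27 AfaR and Cal27 ErlR. The adaptor counts were thus near the background. FRS2, the main docking adaptor, passed in none of the 4 comparisons, with log2 fold changes from 0.011 to 0.39 and a lowest adjusted p of 0.0562, in Cal27 AfaR. GAB1 (1.45, SE 0.288, adjusted p = 0.00394) and PLCG1 (0.79, SE 0.146, adjusted p = 0.00270) rose in Cal27 AfaR and held under every alternative. In Cal27 ErlR PTPN11, the phosphatase SHP2, had 0.65 (adjusted p = 0.00598) and 0.57 without Cal27 parental replicate 2, where the call was lost. CBL, a ubiquitin ligase of receptors, had 0.54 in Cal27 ErlR (adjusted p = 0.0398) and -0.39 in FaDu AfaR (adjusted p = 0.0498). The first call was lost without Cal27 parental replicate 2 (0.38) or Cal27 ErlR replicate 1 (0.47), and the second without any 1 of the 4 libraries, at values from -0.48 to -0.30.

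The list of targets and feedback regulators of FGF and ERK signaling held 16 tested genes. In FaDu AfaR 0 passed as higher and 5 as lower, against 10.4% and 7.49% of all genes tested, with a median of -0.46. DUSP5, a phosphatase of nuclear ERK, had 19.3 and 19.8 CPM against 51.7 and 54.7 CPM (-1.46, SE 0.144, adjusted p = 0.00107). This was the 1 call of the 5 that held under every alternative. EGR1, an immediate early transcription factor, had -3.17 (adjusted p = 0.0161) and -2.79 without FaDu AfaR replicate 2, where its call was lost, and its parental libraries lay far apart at 123 and 696 CPM. DUSP6 (-1.35) and ETV4 (-1.34) lost their calls without FaDu parental replicate 1 (-1.48 and -1.48), parental replicate 2 (-1.21 and -1.20) or FaDu AfaR replicate 2 (-1.33 and -0.98). CCND1 (-0.69) lost its call without FaDu parental replicate 1 (-0.60) or FaDu AfaR replicate 2 (-0.60).

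In Cal27 ErlR 13 of the 16 targets passed as higher and 0 as lower, against 12.3% and 15.3% of all genes tested, with a median of 0.99. SPRY4, a Sprouty inhibitor of the cascade, had 29.0 and 19.4 CPM against 3.90 and 3.56 CPM (2.67, SE 0.258, adjusted p = 0.000203), and DUSP6, a phosphatase of cytoplasmic ERK, had a log2 fold change of 2.09 (SE 0.168, adjusted p = 8.33e-05). ETV1 rose by 2.31 (SE 0.392), ETV5 by 1.52 (SE 0.184), DUSP5 by 1.47 (SE 0.269) and ETV4 by 0.88 (SE 0.170). These 6 calls held under every alternative. CCND1 (1.01) lost its call without Cal27 parental replicate 2 (0.77) or Cal27 ErlR replicate 1 (0.68). FGFR1 itself stayed near 1 CPM in these libraries.

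In Cal27 AfaR the targets divided, with 4 higher and 4 lower and a median of 0.23. Of all genes tested, 19.5% passed as higher and 18.2% as lower, so these counts were near the background. ETV1 rose by 2.64 (SE 0.391), ETV5 by 1.44 (SE 0.183) and SPRY2 by 1.27 (SE 0.179), and ETV4 fell by 1.48 (SE 0.179) and DUSP6 by 0.86 (SE 0.174), all held under every alternative. EGR1 fell by 1.91 (adjusted p = 0.0151) and lost its call without Cal27 AfaR replicate 1 (-1.31). DUSP5 fell by 0.80 (adjusted p = 0.0452) and lost its call without Cal27 parental replicate 2 (-0.35) or Cal27 AfaR replicate 1 (-0.50). In FaDu ErlR 1 target passed as higher and 1 as lower, against 2.58% and 1.60% of all genes tested. SPRY2 had 1.16 (adjusted p = 0.0481) and lost its call without FaDu parental replicate 1 (1.06), parental replicate 2 (1.27) or FaDu ErlR replicate 2 (0.82). DUSP5 had -0.70 (adjusted p = 0.0327) and lost its call without any 1 of the 4 libraries, at values from -0.88 to -0.54.

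**Figure D4:**
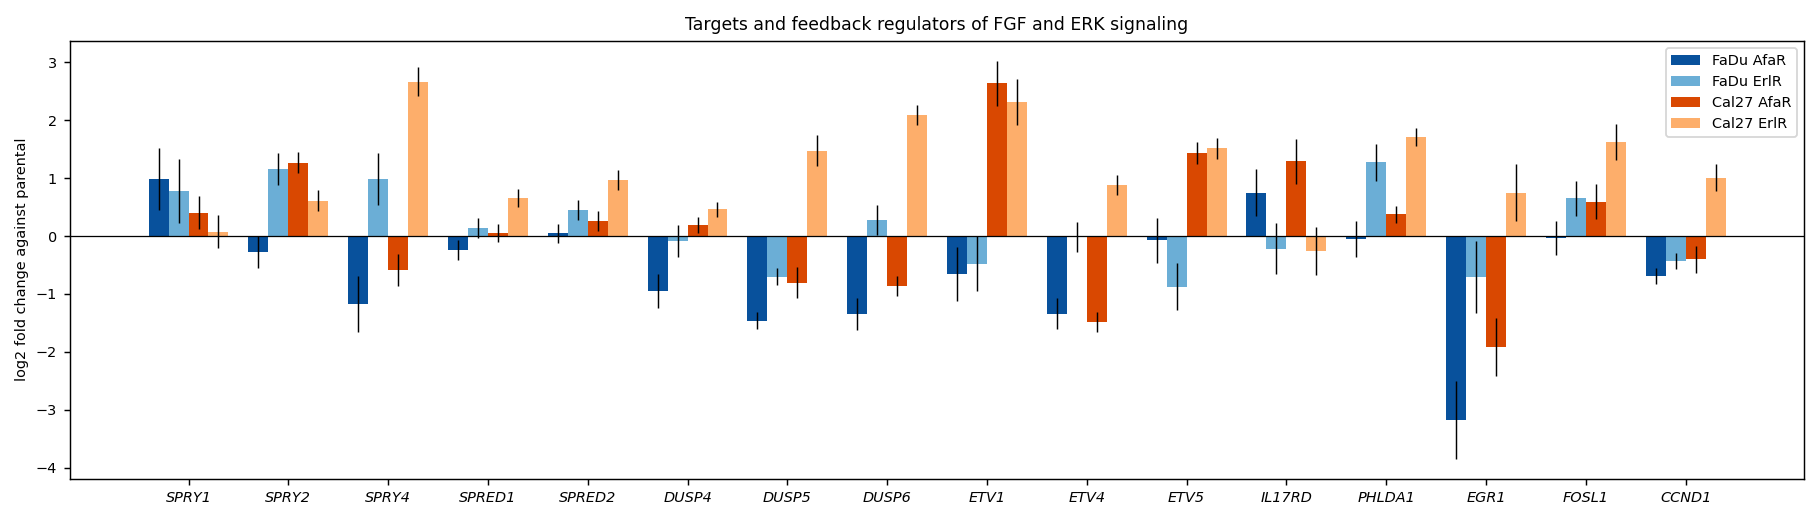
Log2 fold change against parental cells (bars, with SE of the fit) of the 16 listed targets and feedback regulators of FGF and ERK signaling in the 4 comparisons. In Cal27 ErlR 15 of 16 bars are above 0, of which 13 passed the test, with SPRY4 at 2.67, and in FaDu AfaR 13 of 16 are below 0, of which 5 passed.

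Among 45 partners and paralogs of the other members, which form complexes with them or share their function, 2 passed as higher and 7 as lower in FaDu AfaR, 1 and 0 in FaDu ErlR, 8 and 8 in Cal27 AfaR and 10 and 2 in Cal27 ErlR. Of all genes tested, 10.4% and 7.49%, 2.58% and 1.60%, 19.5% and 18.2%, and 12.3% and 15.3% passed in the same comparisons, so the counts in Cal27 AfaR were near the background. The median log2 fold changes of the partners were -0.14, -0.13, -0.01 and 0.10. In FaDu AfaR HSPA8, the constitutive HSP70 chaperone that BAG4 binds, had 1925 and 1932 CPM against 3637 and 3055 CPM (-0.81, SE 0.141, adjusted p = 0.00820), a call lost without FaDu parental replicate 1 (-0.69). BAG2, another co-chaperone, had -0.71, lost without the same library (-0.75). RNF170, the ligase that acts with ERLIN2, had 0.90 (adjusted p = 0.0143) and lost its call without FaDu parental replicate 1 (0.96), parental replicate 2 (0.83) or AfaR replicate 2 (0.84). RAB11FIP5 had 0.76 (adjusted p = 0.0119), lost without FaDu parental replicate 1 (0.63) or AfaR replicate 2 (0.64).

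In Cal27 AfaR RAB25, an epithelial RAB11 relative that binds RAB11FIP1, had 1.94 and 1.39 CPM against 21.1 and 28.9 CPM (-3.89, SE 0.287, adjusted p = 1.61e-05). WNT7A, the ligand of the ADGRA2 and RECK receptor complex, had 3.73 and 3.54 CPM against 48.5 and 34.0 CPM (-3.50, SE 0.216, adjusted p = 7.04e-06), while RECK rose by 1.37 (SE 0.234, adjusted p = 0.00181). TNFRSF1A, the receptor that BAG4 binds, rose by 1.00 (SE 0.138, adjusted p = 0.000573). These 4 calls held under every alternative.

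In Cal27 ErlR PDXP, a phosphatase of pyridoxal phosphate, rose from 5.18 and 5.25 CPM to 16.7 and 17.4 CPM (1.68, SE 0.219, adjusted p = 0.000927). RECK rose by 1.14 (SE 0.236) and WNT7B fell by 0.95 (adjusted p = 0.00804), and these 3 held under every alternative. PDXK, the kinase that makes pyridoxal phosphate, had -0.45 (adjusted p = 0.0340) and lost its call without any 1 of the 4 libraries, at values from -0.49 to -0.38. In FaDu ErlR SNAPC3, a subunit of the complex that acts with BRF2 at U6 promoters, had 0.53 (adjusted p = 0.0354) and lost its call without any 1 of the 4 libraries, at values from 0.44 to 0.62.

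Outside the window, the 5 genes whose log2(CPM + 1) profile over the 12 libraries was most like that of FGFR1, out of 10541 that averaged 5 CPM or more, were ARNT2 (Pearson r of 0.978), MMP2 (0.974), FBXL5 (0.970), CKLF (0.966) and DPYSL3 (0.964). MMP2, a secreted gelatinase, had 104 ± 31.6 CPM in Cal27 AfaR, 14.6 ± 4.56 CPM in FaDu AfaR and from 0.533 to 1.98 CPM in the means of the other groups. ARNT2, a bHLH-PAS transcription factor, had 29.8 ± 2.51 CPM in Cal27 AfaR and 7.47 ± 0.484 CPM in FaDu AfaR. DPYSL3 had 253 ± 8.30 CPM in Cal27 AfaR, but its FaDu AfaR and FaDu ErlR means were close, at 51.3 and 48.1 CPM. The 12 libraries share lines and groups, so these are descriptions of likeness with no test.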

How the data were processed

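RNA-seq counts of 12 libraries were analysed, 2 for each of 6 groups (FaDu and Cal27, each parental, AfaR and ErlR). The authors deposited, for each library, a table of raw read counts by Ensembl gene. Per the submitters' processing notes, the tools named were Trimmomatic 0.36, STAR 2.5.2b and featureCounts of Subread 1.5.2, with the GRCh38 build. The strand setting is not given in the sources used here. The 4 tables in which the authors give normalized counts were not used, and ERCC spike-ins (3.86% to 5.82% of counts) stayed out of library sizes and tests.

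Groups and replicate numbers came from the labels. The test was that of edgeR 4.0.16 under R 4.3.3 (TMM, filterByExpr, glmQLFit and glmQLFTest, Benjamini-Hochberg adjustment over all genes tested), with 1 fit per line over 6 libraries (15092 genes in FaDu, 15269 in Cal27) and 3 residual degrees of freedom. The ErlR effects of the lines were compared by an interaction over 12 libraries. A gene passed with an adjusted p under 0.05. Replicates are biological replicates by the labels, and p-values measure the spread between these 2 libraries per group. On simulated counts with 200 changed genes the fit recovered 199 (FaDu AfaR), 200 (FaDu ErlR), 197 (Cal27 AfaR) and 197 (Cal27 ErlR). False calls were 8, 9, 8 and 8 in the same order. Recovery at the fold changes and replicate spread of the genes named here was not tested.

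The members, lists and tests were chosen with earlier results of these data known. The genes named are the 10 members, the other tested genes of the window, the 10 nearest tested genes on each side, the 2 largest rises and 2 largest falls of each list among called genes that averaged 1 CPM or more in the line, and the 5 genes most like FGFR1. In comparisons outside that rule, DUSP6, ETV4, ETV5, DUSP5, SPRY2, CCND1, FGFR2, FRS2, FGF2, FGF9, FGF10 and FGF12 were named after their values were seen. Coordinates, exonic lengths and exon overlaps came from the count tables, and a table of gene names gave symbols for 56948 of 58051 genes. Alternatives were DESeq2 1.42.0, upper-quartile and ERCC scaling, no filter, fits of 4 or 12 libraries, a replicate block and leaving out each library in turn. A block with crossed numbers was added after seeing the data.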

Additional observations from a re-analysis of the deposited data

Results flagged for a closer look

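BRF2 libraries lay on opposite sides of their parental libraries in the 2 afatinib-resistant models, with both FaDu AfaR libraries above and both Cal27 AfaR libraries below. The FaDu AfaR value is one that chose the genes, and in Cal27 AfaR BRF2 did not pass (log2 fold change -0.51, adjusted p = 0.175 by edgeR, and 0.109 to 0.557 over the alternatives). The log2 fold changes differed by 1.74. This difference was not tested, since FaDu AfaR chose the genes. Of the exonic length of BRF2, 59.0% is shared with ADGRA2.

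BAG4 differed between the lines in its ErlR effect, with a log2 difference of -0.61 for FaDu minus Cal27 (SE 0.194, adjusted p = 0.0462 by edgeR over 12 libraries). The call was lost with DESeq2, with upper-quartile scaling, with a replicate block and without any 1 of the 8 libraries concerned.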

How the results depend on the processing

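The FGFR1 and ZNF703 calls in Cal27 AfaR and the RAB11FIP1 call in Cal27 ErlR held under every alternative run. The median log2 fold change of the members in FaDu AfaR (1.73) was 1.91 with ERCC scaling, and 1.60 at the lowest and 1.74 at the highest with 1 library left out. In FaDu ErlR (-0.09) it was 0.40 with ERCC scaling, which moved the median of all genes by 0.49, and between -0.19 and 0.020 with 1 library left out. In Cal27 AfaR (0.24) it was between 0.11 and 0.29 with 1 library left out. In Cal27 ErlR (0.03) it was -0.032 with upper-quartile scaling, 0.15 with 4 libraries, and from -0.027 to 0.12 with 1 library left out. Members passing in FaDu ErlR (0) were 4 with ERCC scaling and 1 without a filter, namely RAB11FIP1, and in Cal27 ErlR (1) they were 2 without a filter and 2 in the fit of 12 libraries. FGF pathway calls in FaDu ErlR (4) were 17 with ERCC scaling and 12 without a filter, and with 1 library left out from 0 to 4. With 1 library left out they ranged from 2 to 11 for FaDu AfaR (10) and from 12 to 18 for Cal27 ErlR (19). The 1 member in the interaction became 0 with DESeq2, with upper-quartile scaling, with a replicate block and with 1 library left out. All genes called in FaDu ErlR were 631 in the report, 1119 with DESeq2, 5747 with ERCC scaling, 1728 without a filter and 68, 72, 518 and 83 without FaDu parental replicate 1, parental replicate 2, ErlR replicate 1 and ErlR replicate 2. With 1 library left out, calls over all genes were 278 to 2541 in FaDu AfaR (2694), 3350 to 4662 in Cal27 AfaR (5745) and 2256 to 3705 in Cal27 ErlR (4215). Calls that leaving out 1 library took away were in part also lost under other settings, among them CBL, DDHD2, DUSP5, SPRY2, FGF1, FGF12, FGFR2, CCND1, BAG2 and PDXK in 1 or more comparisons. With 2 libraries per group, a difference that did not pass may be too small for this depth and spread.

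Same-numbered libraries did not deviate together in every group, with correlations of their deviations of 0.161, -0.102, -0.249 and 0.118 between the parental group and AfaR and ErlR, first for FaDu and then for Cal27, so the numbers do not show a pairing. With a replicate block, in the same order, 10, 0, 3 and 1 members passed, as without it. The 10 in FaDu AfaR follow from the choice of the genes and are no test. The block moved the calls over all genes from 2694 to 2344, 631 to 438, 5745 to 5238 and 4215 to 3693. The block also took away the calls of FGFR2 in Cal27 AfaR, of DDHD2, FGF1, PDXK and SPRY2 in Cal27 ErlR, of CBL and FGF2 in FaDu AfaR and of DDHD2, SNAPC3 and SPRY2 in FaDu ErlR. A block with crossed numbers, added after seeing the data, gave 990 calls in FaDu ErlR and 6312 in Cal27 AfaR.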
